A study of Mus musculus with 14 samples.

Results

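Cholesterol in the brain is made locally, and the 32 genes described here encode enzymes of its synthesis, the SREBP system that regulates them, and proteins that carry, store or remove it. The genes were chosen by name for these roles and not by a rule on their measured values, though earlier results of these data were known. Each was found once among the 55450 genes of the table. They comprise 7 genes of the mevalonate part of the pathway, 11 of the squalene and sterol part, 4 of SREBP regulation and 10 of transport and turnover. Hippocampal poly(A) RNA was sequenced from 14 female C57BL/6J mice at 10 weeks of age, with 1 library per mouse. The tested genotypes were AG-KO (n = 4), which carry GPR30 fl/fl with GFAP-Cre and lack the estrogen receptor GPR30 in astrocytes, Δ3102 (n = 3), a global GPR30 knockout made with CRISPR/Cas9, and NG-KO (n = 4), which carry GPR30 fl/fl with NSE-Cre and lack GPR30 in neurons. WT mice (n = 3) without these alleles were the controls of all 3 genotypes, so the comparisons with WT share the same mice. Mice with only Cre or only the floxed allele were not analysed here, and the effects of the Cre transgenes and of the loss of GPR30 cannot be told apart. Whole tissue was sequenced, so fewer cells of a type and less RNA per cell cannot be told apart either.

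The pathway starts from acetyl-CoA, runs through mevalonate and the isoprenoid farnesyl diphosphate to squalene, and then closes and trims the sterol ring. SREBP2, encoded by Srebf2, is held in the endoplasmic reticulum with SCAP by INSIG when sterols are plentiful, and switches on the synthesis genes when sterols are scarce. Plasma cholesterol hardly enters the brain, where astrocytes load cholesterol onto APOE particles and neurons convert the excess to an exportable oxysterol.

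Gper1, which encodes GPR30, was checked first. Its FPKM (fragments per kilobase of transcript, scaled to the mapped fragments of the library) was 0.540, 1.38, 0.891 and 1.22 in AG-KO mice, 0.0686, 0.145 and 0.0124 in Δ3102 mice, 1.10, 1.41, 0.975 and 1.11 in NG-KO mice, and 0.797, 1.15 and 3.05 in WT mice. All 3 Δ3102 values were below every other mouse, while AG-KO and NG-KO values overlapped those of WT. The libraries held 44527024 to 62669865 counts, of which the 32 genes took 0.303% to 0.349%. Transcripts of other organs were present in an uneven way. The summed FPKM of 9 hepatocyte markers was 1.18 to 103 in AG-KO, 4.16 to 382 in Δ3102, 6.07 to 127 in NG-KO and 287 to 363 in WT mice, and in AG-KO replicates 3 and 4 Alb was listed at the floor of the file. The 4 testis markers summed to 6.90 to 44.0 FPKM in AG-KO and 0.597 to 165 in Δ3102 mice. In NG-KO and WT mice they summed to 0.140 to 95.6 and 1.87 to 164 FPKM. Sums of 4 choroid plexus markers were 17.7 to 239 FPKM in AG-KO and 18.1 to 1423 in Δ3102 mice, highest in replicate 1. They were 4.52 to 44.0 FPKM in NG-KO and 75.1 to 119 in WT mice. The 4 hippocampal markers summed to 66.0 to 90.0 FPKM in AG-KO mice, 68.6 to 87.4 in Δ3102 mice, 77.1 to 83.8 in NG-KO mice and 81.5 to 84.1 in WT mice.

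The promoters of 5 of the genes whose levels are given mouse by mouse below are shown, with the 250 bases before the RefSeq start of transcription in GRCm38.p6. Capitals mark the sterol regulatory element TCACCCCAC and the CCAAT box (CCAAT, or ATTGG on the other strand). SREBP binds the first and NF-Y, its usual partner, the second, and the marked matches do not overlap. Hmgcs1 lies at chr13:119690101-119690350 on the plus strand, Sc5d at chr9:42264301-42264550 on the minus strand, Mvk at chr5:114444019-114444268 on the plus strand, Dhcr7 at chr7:143822917-143823166 on the plus strand (the first of its 3 listed starts) and Soat1 at chr1:156474329-156474578 on the minus strand.
Hmgcs1: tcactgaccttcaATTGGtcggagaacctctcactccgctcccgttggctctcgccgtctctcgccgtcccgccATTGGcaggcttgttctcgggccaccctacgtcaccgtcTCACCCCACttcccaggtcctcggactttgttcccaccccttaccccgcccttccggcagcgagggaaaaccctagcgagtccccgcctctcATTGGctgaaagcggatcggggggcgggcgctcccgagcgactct
Sc5d: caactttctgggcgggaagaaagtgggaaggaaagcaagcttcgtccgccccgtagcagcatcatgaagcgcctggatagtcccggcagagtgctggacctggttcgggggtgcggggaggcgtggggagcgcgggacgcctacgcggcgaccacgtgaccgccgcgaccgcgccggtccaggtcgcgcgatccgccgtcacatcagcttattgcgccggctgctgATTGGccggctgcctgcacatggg
Mvk: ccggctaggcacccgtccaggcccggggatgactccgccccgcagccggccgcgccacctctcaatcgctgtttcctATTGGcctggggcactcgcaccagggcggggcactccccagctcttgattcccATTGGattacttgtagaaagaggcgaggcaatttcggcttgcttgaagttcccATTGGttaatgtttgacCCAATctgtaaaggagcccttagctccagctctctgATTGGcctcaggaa
Dhcr7: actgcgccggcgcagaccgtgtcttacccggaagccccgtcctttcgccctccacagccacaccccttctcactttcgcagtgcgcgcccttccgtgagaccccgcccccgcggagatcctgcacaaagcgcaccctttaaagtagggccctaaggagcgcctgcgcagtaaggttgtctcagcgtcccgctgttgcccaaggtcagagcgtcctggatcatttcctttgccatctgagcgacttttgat
Soat1: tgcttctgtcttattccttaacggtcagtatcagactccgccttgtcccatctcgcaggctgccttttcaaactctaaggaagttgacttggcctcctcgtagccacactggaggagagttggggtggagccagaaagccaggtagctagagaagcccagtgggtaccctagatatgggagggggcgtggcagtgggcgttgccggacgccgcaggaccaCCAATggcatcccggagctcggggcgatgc

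Searched on both strands, TCACCCCAC occurred in 1 of the 34 promoters listed for 26 of the 32 genes, that of Hmgcs1, where it began 137 bases before the start, and in 0.496% of all 32851 promoters. The looser TCACNCCAC was again found for Hmgcs1 alone among these genes, against 1.05% of all promoters. CCAAT occurred in 64.7% of the 34 promoters and 33.8% of all, and the GC box GGGCGG in 70.6% and 32.7%. Hmgcs1 had 3 CCAAT boxes, Mvk had 5, and Sc5d and Soat1 had 1 each. The Dhcr7 window shown had 0, while in windows of its other starts CCAAT boxes began 85 and 49 bases before the start. The LXR element, a direct repeat to which the sterol-sensing LXR binds, was in 0 of the 34 and in 0.0152% of all promoters. These are letter matches in a short window and no evidence of binding. Fdps, Npc1, Sqle, Fdft1, Stard4 and Abcg1 had no entry.

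All 32 genes passed the filter (0.5 FPKM or more in 3 or more libraries), which kept 18059 genes in all. Their levels spanned a wide range. Apoe, the main lipid carrier of the brain, had the highest FPKM in every genotype (355 ± 16.3 in AG-KO, SD, n = 4, and 485 ± 17.1 in WT, SD, n = 3). It was followed in WT mice by Hmgcs1 (43.5 ± 2.68 FPKM) and Cyp46a1, the neuronal enzyme that makes the exported oxysterol (40.5 ± 3.82 FPKM). The lowest in WT mice was Lss, the lanosterol synthase, at 1.88 ± 0.411 FPKM. Reads of some members cannot be told from those of other gene models, since the transcripts of Fdps, Acat2, Idi1, Fdft1, Hmgcs1 and Scap share 80.4%, 40.7%, 29.1%, 25.4%, 12.2% and 10.2% of their stretches of 75 bases with other genes. Fdft1 overlaps the strongly expressed Ctsb on the opposite strand. Npc1 overlaps Rmc1 on the opposite strand, at means of 5.91 and 5.71 FPKM, and shares 7.18% of its stretches with it. Tm7sf2 overlaps Vps51 on the same strand but shares 0% of its stretches with other genes. The values of these genes are uncertain for this reason, for Tm7sf2 by the overlap of the gene models alone.

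**Figure D1:**
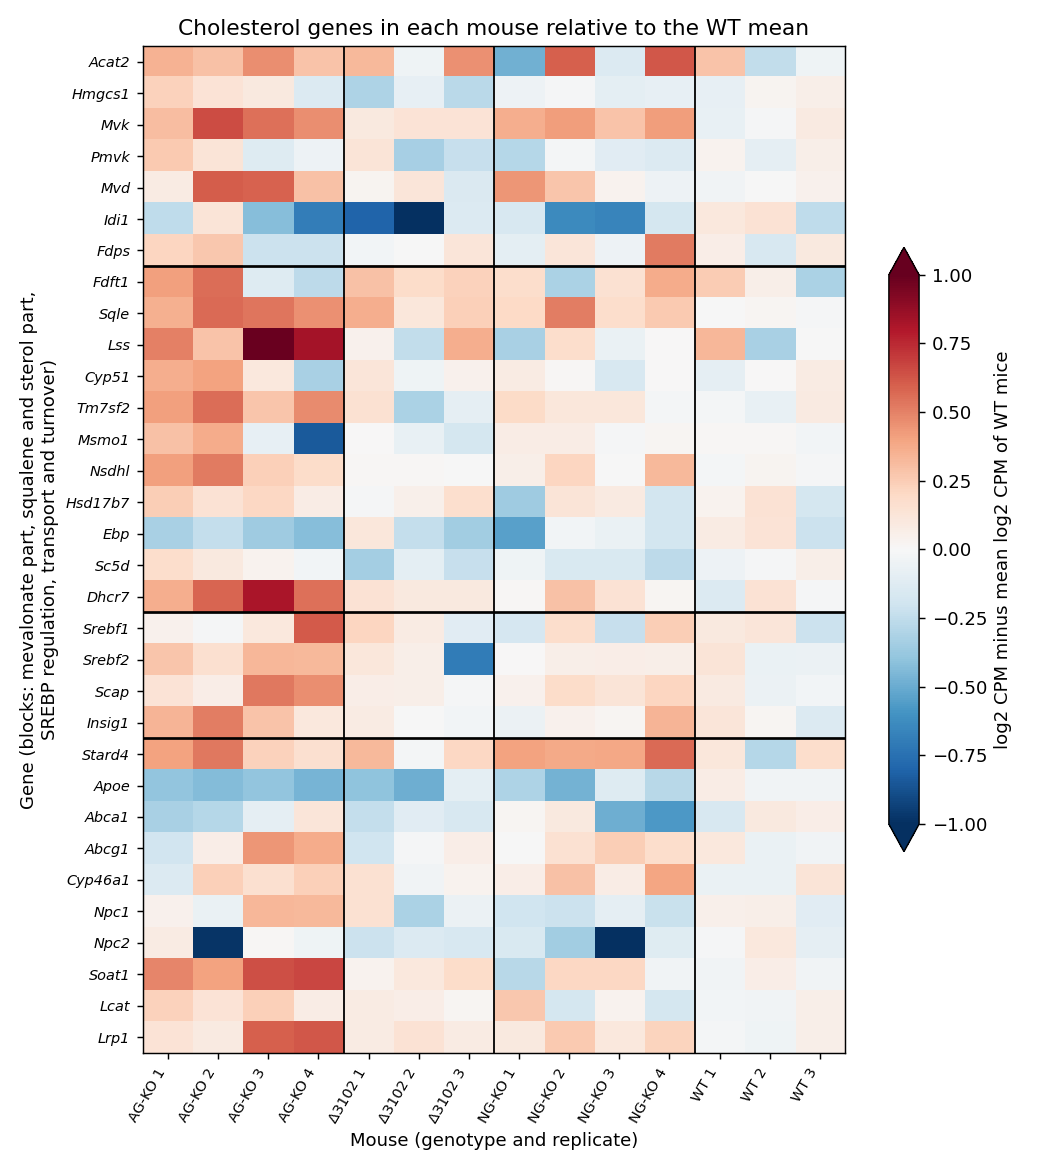
Log2 CPM (counts scaled to library size) of each of the 32 genes in each mouse minus the mean log2 CPM of the WT mice, with genotypes separated by vertical lines and gene roles by horizontal lines. In AG-KO mice Mvk, Sqle, Lss, Dhcr7 and Soat1 are above the WT mean in all 4 mice and Apoe and Ebp are below it in all 4.

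In AG-KO mice most of the genes were somewhat higher than in WT mice, and none passed the test. edgeR's quasi-likelihood test called 0 of 32 at an adjusted p under 0.05 (Benjamini-Hochberg over all tested genes), against 0.0221% of all genes, and the smallest adjusted p was 0.113. DESeq2 called 5 (Sqle, Dhcr7, Mvk, Soat1 and Apoe), against 2.23% of all genes. At an unadjusted p under 0.05, edgeR gave 14 of 32, of which 12 were higher and 2 lower, against 14.4% of all genes in either direction, 6.65% higher and 7.74% lower. Of the 32, 27 had a log2 fold change above 0, against 48.2% of all genes, and the median log2 fold change was 0.18 for these genes and -0.01 for all genes. In 9 genes every AG-KO mouse was above every WT mouse and in 2 every AG-KO mouse was below, against 5.04% and 8.3% of all genes. By role, the unadjusted count was 2 of 7 in the mevalonate part, 6 of 11 in the squalene and sterol part, 2 of 4 in SREBP regulation and 4 of 10 in transport and turnover.

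In Δ3102 mice edgeR also called 0 of 32, against 0.0111% of all genes, DESeq2 called 0, against 0.198%, and 5 members had an unadjusted p under 0.05 in edgeR, against 4.45% of all genes. Sqle was the 1 higher gene, against 2.18% of all genes, and Hmgcs1, Idi1, Sc5d and Apoe were lower, against 2.27%. Δ3102 and WT mice did not overlap in 2 genes that were higher and 4 that were lower, against 5.4% and 6.13% of all genes. A log2 fold change above 0 was found in 19 of 32, against 49.2%, and the median was 0.02. The count of 5 fell to 2 without WT replicate 2, WT replicate 3, Δ3102 replicate 1 or Δ3102 replicate 3, and to 3 without WT replicate 1. The shares of all genes in these reduced fits are not given here. In NG-KO mice edgeR called 0 of 32, against 0.072% of all genes, and DESeq2 called 0, against 0.916%. There, 4 had an unadjusted p under 0.05, against 9.16% of all genes, with Mvk, Sqle and Stard4 higher and Apoe lower, against 4.33% higher and 4.83% lower. NG-KO and WT mice did not overlap in 3 genes that were higher and 4 that were lower, against 4.2% and 6.66% of all genes. A log2 fold change above 0 was found in 19 of 32, against 47.5%, and the median was 0.04.

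**Figure D2:**
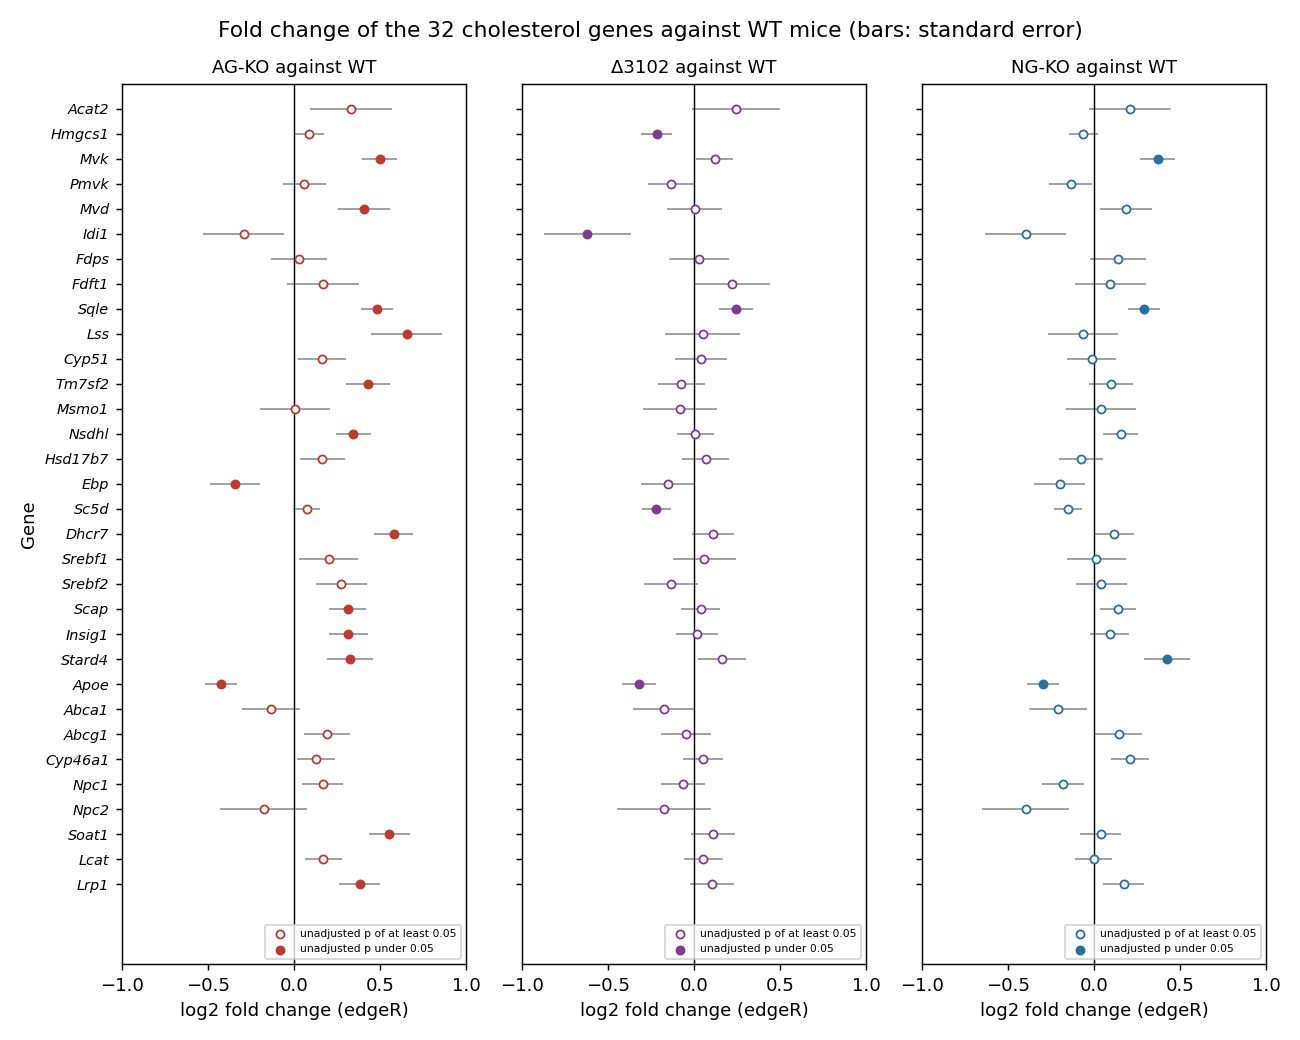
Log2 fold change from edgeR, with its standard error, of each of the 32 genes in AG-KO, Δ3102 and NG-KO mice against the same 3 WT mice. Filled points have an unadjusted p under 0.05 (14, 5 and 4 genes), and none has an adjusted p under 0.05.

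AG-KO mice were also compared with the other knockouts. Against NG-KO mice, edgeR called 0 of 32 (0.111% of all genes) and DESeq2 called 3 (Soat1, Dhcr7 and Lss; 2.68% of all genes). At an unadjusted p under 0.05 there were 7 members, all higher in AG-KO mice, against 7.3% of all genes higher and 6.84% lower. In 6 genes AG-KO mice were higher without overlap and in 0 lower, against 3.46% and 3.31% of all genes, and 26 of 32 had a log2 fold change above 0, against 48.6%. Against Δ3102 mice, edgeR called 0 of 32 (0.0277% of all genes) and DESeq2 called 2 (Dhcr7 and Tm7sf2; 0.649% of all genes). There, 14 members were at an unadjusted p under 0.05, all higher in AG-KO mice, against 4.94% of all genes higher and 5.63% lower. In 9 genes AG-KO mice were higher without overlap and in 0 lower, against 3.89% and 6.09% of all genes, and 27 of 32 had a log2 fold change above 0, against 48.5%. The median log2 fold change was 0.18 against NG-KO mice and 0.23 against Δ3102 mice. Between NG-KO and Δ3102 mice, edgeR called 0 of 32 (0.0609% of all genes), DESeq2 called 0 (0.444%), and Mvk alone had an unadjusted p under 0.05, higher in NG-KO mice (6.46% of all genes, 2.81% higher and 3.65% lower). NG-KO mice were higher without overlap in 2 genes and lower in 0, against 3.13% and 5.07% of all genes, and 19 of 32 had a log2 fold change above 0, against 49.7%. The median was 0.06.

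In the mevalonate part, Hmgcs1 (ENSMUSG00000093930, chr13:119690379-119708260), the HMG-CoA synthase, had 51.7, 47.6, 44.4 and 37.8 FPKM in AG-KO mice, 35.1, 40.5 and 36.2 in Δ3102 mice, 41.0, 42.8, 40.2 and 41.1 in NG-KO mice, and 40.5, 44.0 and 45.8 in WT mice. All 3 Δ3102 values lay below the WT values in FPKM, the nearest pair by little, and AG-KO values overlapped those of WT. In CPM, Δ3102 replicate 2 (210.6) was above WT replicate 1 (210.4). The log2 fold change was -0.22 ± 0.09 (SE) in Δ3102 mice and 0.09 ± 0.09 (SE) in AG-KO mice. Mvk (ENSMUSG00000041939, chr5:114444269-114460591), the kinase that phosphorylates mevalonate, had 6.28, 7.85, 7.00 and 6.56 FPKM in AG-KO mice, 5.33, 5.41 and 5.52 in Δ3102 mice, 6.30, 6.64, 6.04 and 6.69 in NG-KO mice, and 4.68, 4.93 and 5.39 in WT mice. All AG-KO and NG-KO values exceeded all WT and Δ3102 values. For Mvk the log2 fold change was 0.50 ± 0.10 (SE; edgeR adjusted p = 0.113) in AG-KO mice and 0.37 ± 0.10 (SE; edgeR adjusted p = 0.284) in NG-KO mice. Mvd, the decarboxylase that makes isopentenyl diphosphate, had 9.11, 12.8, 12.2 and 9.91 FPKM in AG-KO mice and 8.17, 8.39 and 8.87 in WT mice, without overlap (log2 fold change 0.41 ± 0.15, SE; edgeR adjusted p = 0.257). Idi1, the isomerase of the next step, averaged 7.18 FPKM in Δ3102 and 11.0 in WT mice with overlapping groups. Acat2, Pmvk and Fdps overlapped WT in every knockout.

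In the squalene and sterol part, Sqle (ENSMUSG00000022351, chr15:59315077-59331192), the squalene epoxidase and a rate-limiting enzyme, had 12.2, 13.9, 13.1 and 12.4 FPKM in AG-KO mice, 12.2, 10.1 and 11.2 in Δ3102 mice, 10.6, 13.4, 10.6 and 11.3 in NG-KO mice, and 9.31, 9.52 and 9.52 in WT mice. The WT values were the lowest of all 14 mice and close to each other. Relative to WT, the log2 fold change was 0.48 ± 0.09 (SE) in AG-KO mice, 0.24 ± 0.10 in Δ3102 mice and 0.29 ± 0.09 in NG-KO mice, and the same 3 low WT values enter each. Dhcr7 (ENSMUSG00000058454, chr7:143823145-143848410), a reductase of the final step, had 7.06, 8.08, 9.10 and 7.57 FPKM in AG-KO mice, 5.98, 5.74 and 5.85 in Δ3102 mice, 5.35, 6.59, 5.94 and 5.52 in NG-KO mice, and 4.89, 5.96 and 5.47 in WT mice. Every AG-KO mouse was above the other 10 mice, at a log2 fold change of 0.58 ± 0.11 (SE; edgeR adjusted p = 0.113) against WT and 0.46 ± 0.10 (SE; edgeR adjusted p = 0.111) against NG-KO mice. Against NG-KO mice the exact two-sided permutation test of FPKM gave an unadjusted p = 0.0286, the smallest that 4 against 4 mice allow. Each of the 6 genes without overlap in this comparison gets this p from the lack of overlap alone. Genes were also chosen for display by lack of overlap, so the test adds nothing to it here. The exact two-sided permutation test allows no p below 0.0571 for 4 against 3 mice and none below 0.1 for 3 against 3.

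Tm7sf2, a sterol reductase, had 3.22, 3.52, 2.77 and 3.17 FPKM in AG-KO mice and 2.34, 2.27 and 2.59 in WT mice, without overlap (log2 fold change 0.43 ± 0.13, SE). Lss (ENSMUSG00000033105, chr10:76531588-76557138), which closes the sterol ring, had 2.66, 2.25, 3.50 and 3.14 FPKM in AG-KO mice, 1.54 to 2.38 in Δ3102 mice, 1.45, 2.08, 1.75 and 1.85 in NG-KO mice, and 2.29, 1.47 and 1.86 in WT mice. AG-KO replicates 3 and 4 were the highest, and replicate 2 was inside the WT range. Lss had a log2 fold change of 0.65 ± 0.21 (SE) against WT, and of -0.046 with the levels of Alb, Acta1 and Prm2, transcripts of liver, muscle and testis, as covariates. Sc5d, a desaturase near the end of the pathway, had 17.5, 16.3, 15.0 and 14.3 FPKM in AG-KO mice, 12.1, 14.1 and 13.1 in Δ3102 mice, 14.5, 13.6, 13.6 and 12.8 in NG-KO mice, and 14.6, 15.1 and 16.2 in WT mice. Δ3102 and NG-KO values lay below WT without overlap in FPKM (log2 fold change -0.22 ± 0.08 and -0.15 ± 0.08, SE). In CPM, Sc5d of NG-KO replicate 1 (80.6) was above that of WT replicate 1 (80.2). Nsdhl, a sterol dehydrogenase, averaged 12.9 FPKM in AG-KO and 10.3 in WT mice without overlap. Ebp, the sterol isomerase, was lower instead, at a mean of 7.04 FPKM in AG-KO and 9.11 in WT mice, also without overlap. Hsd17b7, a sterol ketoreductase, overlapped WT in every knockout.

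AG-KO mice were not alike in this part of the pathway. Fdft1, the squalene synthase, had 28.9, 31.4, 18.7 and 17.1 FPKM in AG-KO replicates 1 to 4 and 25.3, 22.3 and 17.4 in WT mice. Cyp51, the lanosterol demethylase, had 21.9, 22.0, 17.2 and 12.8 FPKM in AG-KO mice and 15.6, 16.7 and 18.0 in WT mice. Msmo1, the methylsterol oxidase, had 17.8, 18.5, 13.0 and 7.64 FPKM in AG-KO mice and 14.3, 14.4 and 14.3 in WT mice. In all of them AG-KO replicates 1 and 2 were above replicates 3 and 4, the opposite of Lss, and replicate 4 had the lowest Msmo1 of all mice. Summed over the 18 synthesis enzymes, FPKM spanned 203 to 274 in AG-KO mice, 208 to 222 in Δ3102 mice, 212 to 238 in NG-KO mice and 221 to 225 in WT mice. AG-KO replicates 3 and 4 were also those with the lowest hepatocyte sums (1.32 and 1.18 FPKM) and skeletal muscle sums (4.55 and 3.90 FPKM), and the part of this in the differences was not tested.

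**Figure D3:**
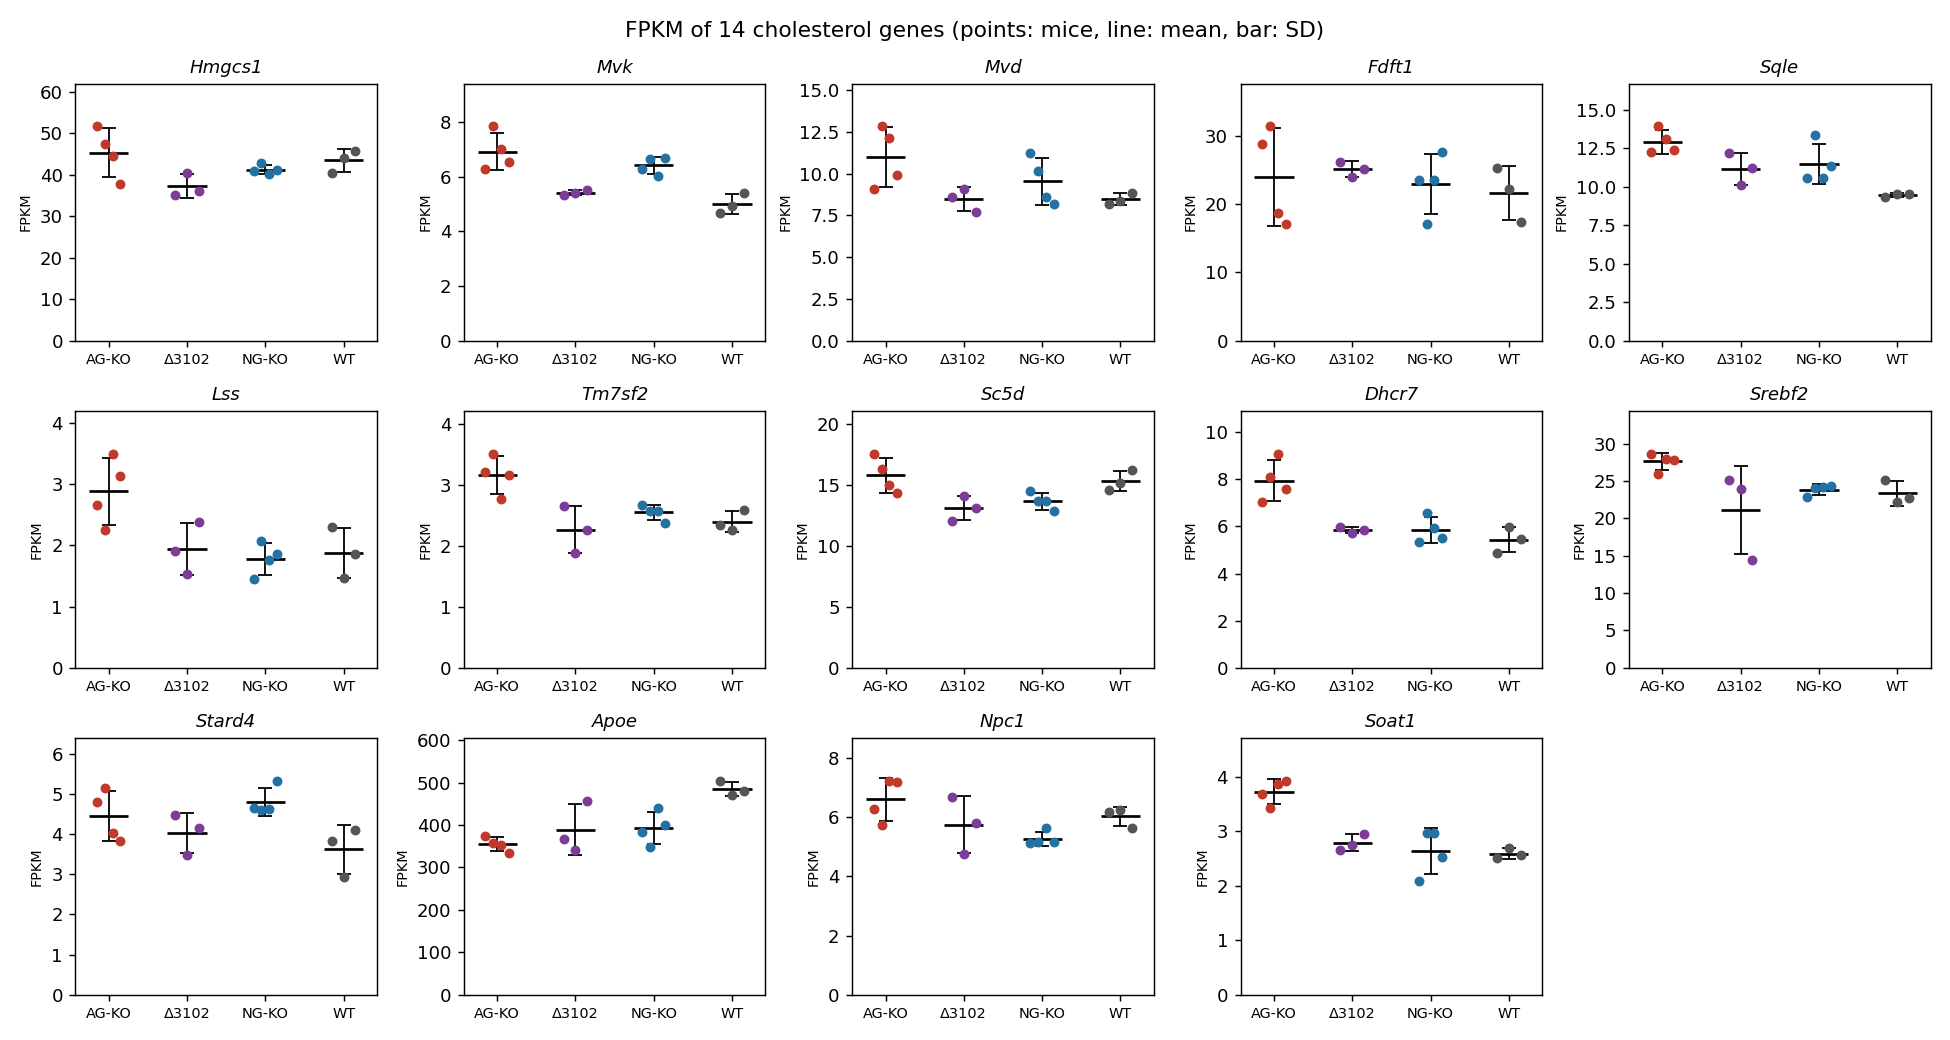
FPKM of 14 of the 32 genes in each mouse, by genotype, with the mean as a line and the SD as a bar. AG-KO mice lie above WT mice without overlap for Mvk, Mvd, Sqle, Tm7sf2, Dhcr7, Srebf2 and Soat1, and below them for Apoe.

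Of the regulators, Srebf2 (ENSMUSG00000022463, chr15:82147181-82205379), which encodes SREBP2, had 28.7, 26.0, 28.0 and 27.9 FPKM in AG-KO mice, 25.2, 24.0 and 14.4 in Δ3102 mice, 22.8, 24.1, 24.2 and 24.3 in NG-KO mice, and 25.2, 22.1 and 22.7 in WT mice. Every AG-KO mouse was above the other 10 mice, though the nearest WT mouse was close, and Δ3102 replicate 3 stood far below. The log2 fold change in AG-KO against WT mice was 0.27 ± 0.15 (SE; edgeR adjusted p = 0.412). Insig1, which retains SCAP in the endoplasmic reticulum, averaged 21.1 FPKM in AG-KO and 17.3 in WT mice, and Scap averaged 12.6 and 10.4, both with overlap. Scap had a log2 fold change of 0.31 against WT and of -0.076 with the 3 covariates. Srebf1 overlapped WT in every knockout. The 4 regulators summed to 66.3 to 67.7 FPKM in AG-KO mice, 46.5 to 60.1 in Δ3102 mice, 53.8 to 64.2 in NG-KO mice and 53.3 to 60.0 in WT mice.

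In transport and turnover, Apoe (ENSMUSG00000002985, chr7:19696109-19699188) had 375, 358, 352 and 335 FPKM in AG-KO mice, 367, 342 and 457 in Δ3102 mice, 383, 348, 440 and 400 in NG-KO mice, and 504, 471 and 480 in WT mice. All 11 knockout mice were below all 3 WT mice. The log2 fold change was -0.42 ± 0.09 (SE; edgeR adjusted p = 0.120) in AG-KO mice, -0.32 ± 0.10 (SE) in Δ3102 mice and -0.29 ± 0.09 (SE; edgeR adjusted p = 0.355) in NG-KO mice, all against the same WT mice. Liver also makes APOE, so Alb is given beside it. Alb had 44.8 and 1.12 FPKM in AG-KO replicates 1 and 2 and was at the floor in replicates 3 and 4, and it had 161, 189 and 1.11 FPKM in Δ3102 mice, 2.00, 55.8, 41.7 and 49.6 in NG-KO mice, and 167, 126 and 165 in WT mice. Δ3102 replicates 1 and 2 had Alb at or above the level of WT mice and Apoe below it, while Δ3102 replicate 3 had little Alb and the highest Apoe of the knockout mice. With Alb, Acta1 and Prm2 as covariates the log2 fold change of Apoe was -0.40 in AG-KO mice, -0.32 in Δ3102 mice and -0.30 in NG-KO mice. Alb was lower in every AG-KO and NG-KO mouse than in every WT mouse. For AG-KO and NG-KO mice the fit therefore cannot tell the level of Alb from genotype. The part of liver RNA in the Apoe differences was not tested. Astrocyte markers, from cells that make most brain APOE, summed to 608 to 633 FPKM in AG-KO mice, 583 to 639 in Δ3102 mice, 545 to 629 in NG-KO mice and 577 to 664 in WT mice. Of the 9 astrocyte markers, at an unadjusted p under 0.05, 2 were higher and 0 lower in AG-KO than in WT mice. In Δ3102 against WT mice 0 were higher and 1 lower, and in NG-KO against WT mice 0 were higher and 2 lower. Relative to NG-KO mice, 4 were higher and 0 lower in AG-KO mice (median log2 fold change 0.21). Relative to Δ3102 mice, 3 were higher and 0 lower in AG-KO mice (median 0.11). Of 4 endothelial markers, 2 were higher in AG-KO than in NG-KO mice (median 0.32). In AG-KO mice 1 was higher than in WT mice and 1 higher than in Δ3102 mice. Of all genes, 6.65% were higher and 7.74% lower in AG-KO than in WT mice at this p. For Δ3102 and NG-KO against WT mice the shares were 2.18% and 2.27%, and 4.33% and 4.83%. For AG-KO against NG-KO and Δ3102 mice they were 7.3% and 6.84%, and 4.94% and 5.63%. edgeR called 0 of either list at an adjusted p under 0.05 in all 6 comparisons, and the part of both lists in the differences was not tested.

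**Figure D4:**
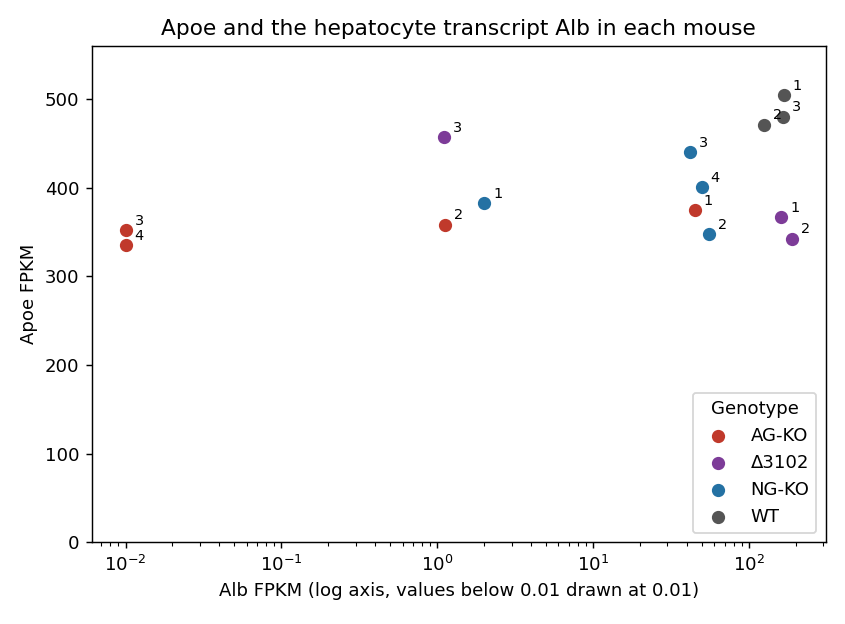
Apoe FPKM against Alb FPKM (log axis) in each mouse, with the replicate number beside each point. The WT mice lie at 471 to 504 Apoe FPKM and all 11 knockout mice at 335 to 457, with Alb at the WT level in Δ3102 replicates 1 and 2.

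Soat1 (ENSMUSG00000026600, chr1:156424525-156474331), which esterifies cholesterol for storage, had 3.68, 3.42, 3.87 and 3.92 FPKM in AG-KO mice, 2.65, 2.75 and 2.95 in Δ3102 mice, 2.09, 2.97, 2.97 and 2.53 in NG-KO mice, and 2.51, 2.70 and 2.56 in WT mice. Every AG-KO mouse was above the other 10 mice, at a log2 fold change of 0.55 ± 0.12 (SE; edgeR adjusted p = 0.118) against WT and 0.52 ± 0.11 (SE; edgeR adjusted p = 0.105) against NG-KO mice. Without AG-KO replicate 2, the lowest AG-KO mouse, the comparison with NG-KO mice gave 0.56 at an edgeR adjusted p of 0.0406. That was 1 of 14 fits that each left out 1 library. Over 24 alternative fits with edgeR, DESeq2 or limma, the adjusted p of this comparison ran from 0.00427 to 0.684. Stard4, a cytosolic sterol carrier, had 4.64, 4.61, 4.63 and 5.32 FPKM in NG-KO mice and 3.83, 2.93 and 4.10 in WT mice. These did not overlap. The log2 fold change was 0.42 ± 0.13 (SE), and 0.19 with the oligodendrocyte marker sum as a covariate. Stard4 had 4.79, 5.14, 4.01 and 3.82 FPKM in AG-KO mice and 4.47, 3.49 and 4.15 in Δ3102 mice. Both overlapped WT (log2 fold change 0.32 ± 0.13 and 0.16 ± 0.14, SE). Npc1, which exports cholesterol from lysosomes, had 6.27, 5.74, 7.22 and 7.18 FPKM in AG-KO mice and 5.13, 5.15, 5.62 and 5.17 in NG-KO mice, without overlap (log2 fold change 0.35 ± 0.11, SE; edgeR adjusted p = 0.208). In WT mice it had 6.17, 6.25 and 5.64 FPKM, which overlapped the AG-KO values and lay above every NG-KO value (log2 fold change -0.18 ± 0.12 in NG-KO against WT mice, SE; edgeR adjusted p = 0.705). In CPM, NG-KO replicate 3 (71.7) was above WT replicate 3 (70.4). The 3 Δ3102 values of Npc1, 6.67, 4.76 and 5.80 FPKM, overlapped those of all other genotypes. Lrp1, an APOE receptor, had 23.3, 22.2, 30.1 and 30.6 FPKM in AG-KO mice and 20.4, 20.2 and 22.0 in WT mice, highest in AG-KO replicates 3 and 4. Its log2 fold change was 0.38 against WT, and -0.11 with the 3 covariates. Npc2, the soluble partner of NPC1, was lower in every Δ3102 and every NG-KO mouse than in every WT mouse. Its mean was 11.2 FPKM in Δ3102, 9.53 in NG-KO and 12.7 in WT mice. The log2 fold change against WT was -0.17 ± 0.27 (SE) in Δ3102 and -0.40 ± 0.25 (SE) in NG-KO mice. Neither had an unadjusted p under 0.05 in edgeR. AG-KO values of Npc2 overlapped those of WT. Npc2 was lowest in NG-KO replicate 3 (5.48 FPKM) and AG-KO replicate 2 (6.39 FPKM). Abca1, Abcg1, Cyp46a1 and Lcat overlapped WT in every knockout.

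Oligodendrocytes make much of the brain's cholesterol for myelin, so their 9 markers are given beside these results. They summed to 465 to 868 FPKM in AG-KO mice, 413 to 501 in Δ3102 mice, 289 to 429 in NG-KO mice and 471 to 1074 in WT mice. At an unadjusted p under 0.05, all 9 were lower in NG-KO than in WT mice, 6 were lower in Δ3102 than in WT mice, 0 differed between AG-KO and WT mice, and all 9 were higher in AG-KO than in NG-KO mice. edgeR called 0 of the 9 at an adjusted p under 0.05 in each of these comparisons. With the summed level as a covariate, the unadjusted count of the 32 genes against WT was 13 in AG-KO mice (14 without it), 1 in Δ3102 mice (5 without it) and 0 in NG-KO mice (4 without it), where 15.1%, 4.27% and 5.19% of all genes had such a p. It was 6 in AG-KO against NG-KO mice (7 without it), 14 in AG-KO against Δ3102 mice (14 without it) and 0 in NG-KO against Δ3102 mice (1 without it), where 7.08%, 8.61% and 5.61% of all genes did.

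A further 43 genes of the pathway were read in the same way, and 41 passed the filter. edgeR called 0 in all 6 comparisons. At an unadjusted p under 0.05, 8 were higher and 3 lower in AG-KO than in WT mice, against 6.65% and 7.74% of all genes. In Δ3102 mice 1 was higher and 0 lower than in WT mice, against 2.18% and 2.27%, and in NG-KO mice 1 was higher and 1 lower, against 4.33% and 4.83%. Relative to NG-KO mice, 12 were higher and 0 lower in AG-KO mice, against 7.3% and 6.84%. Relative to Δ3102 mice, 8 were higher and 1 lower in AG-KO mice, against 4.94% and 5.63%, and 0 were higher and 2 lower in NG-KO mice, against 2.81% and 3.65%. DESeq2 called 2, 0, 0, 1, 1 and 0 in these comparisons, in the order given. Of all genes it called 2.23%, 0.198%, 0.916%, 2.68%, 0.649% and 0.444%, in the same order. Fasn, the fatty acid synthase, had 24.1, 23.7, 26.4 and 24.6 FPKM in AG-KO mice and 19.4, 20.6 and 19.0 in WT mice (log2 fold change 0.36 ± 0.08, SE; edgeR adjusted p = 0.131). The groups did not overlap. Scd1, a fatty acid desaturase, had 45.7, 33.8, 47.1 and 44.8 FPKM in AG-KO mice and 28.0, 27.9, 26.9 and 24.0 in NG-KO mice. These did not overlap (log2 fold change 0.70 ± 0.13, SE; edgeR adjusted p = 0.0573). In WT mice Scd1 had 31.0 to 40.7 FPKM, which overlapped AG-KO mice and lay above every NG-KO mouse. In Δ3102 mice Scd1 had 26.2 to 31.7 FPKM. Its relative Scd2 had 45.2, 42.0, 38.9 and 85.6 FPKM in NG-KO mice and 250, 244 and 44.8 in Δ3102 mice. Scd2 was far higher in some mice than in others of the same genotype, WT included (48.8, 51.9 and 252 FPKM), and the sterol transfer gene Gramd1b also varied within genotypes, at 7.99 to 26.0 FPKM in WT mice. Gramd1c, of the same family, had a log2 fold change of 0.49 in NG-KO against WT mice, at means of 0.783 and 0.560 FPKM, near the filter. Stard5, a sterol-binding protein gene, was 0.31 in Δ3102 against WT mice and the transporter gene Abca2 was 0.40 in AG-KO against Δ3102 mice, on the same log2 scale. Among the transport and turnover genes of this list, no edgeR adjusted p was below 0.503 in NG-KO against WT mice. The smallest was 0.9997 in Δ3102 against WT and 0.385 in AG-KO against Δ3102 mice.

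Across the 14 mice, log2 CPM of Hmgcs1 was correlated with each of the other 31 genes. Sc5d alone passed adjustment over the 31 relations, with Pearson's r = 0.88 (permutation p = 6e-05, adjusted p = 0.00186) and Spearman's rho = 0.81 (permutation p = 0.00069, adjusted p = 0.0214). Without Δ3102 replicate 1 and AG-KO replicate 1, r was 0.76 over 12 mice, and after centring each genotype on its mean it was 0.78 over 14 mice. Nsdhl (r = 0.62) and Cyp51 (r = 0.55) had an unadjusted permutation p of 0.0182 and 0.0413 and an adjusted permutation p of 0.281 and 0.401, and 25 of the 31 correlations were positive. Centred on genotype, 16 of the 31 were positive, with r = 0.74 for Msmo1, 0.69 for Cyp51 and 0.45 for Nsdhl. Several were negative, with r = -0.74 for Npc1, -0.51 for Lss and -0.46 for Lrp1. No p was computed for the centred values. Within genotypes Hmgcs1 varied most in AG-KO mice (SD 5.87 FPKM), against 2.89 in Δ3102, 1.06 in NG-KO and 2.68 in WT mice. The centred r values, that of Sc5d included, therefore weigh AG-KO mice most. These mice were not alike in Cyp51, Msmo1, Lss and Lrp1, as given above.

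**Figure D5:**
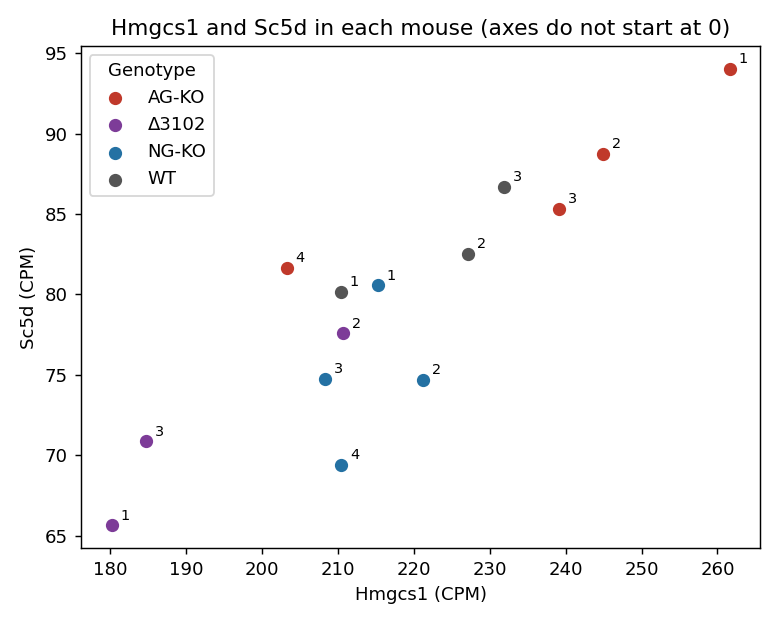
CPM of Sc5d against CPM of Hmgcs1 in each of the 14 mice, coloured by genotype, with the replicate number beside each point and axes that do not start at 0. Both are highest in AG-KO replicate 1 and lowest in Δ3102 replicate 1, and r was 0.76 without these 2 mice.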

How the data were processed

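Hippocampal RNA of 14 mice was sequenced, 1 library per mouse. The paper's methods and the submitters' processing notes name cutadapt 1.9, HISAT2 2.0.4 on GRCm38, StringTie 1.3.4d, UMI-tools, DESeq2 and edgeR. The FPKM values were calculated and deposited by the authors, with a floor of 0.0001. The counts deposited by the authors are whole numbers and not normalized. The program that made them and its use of strand are not given in the sources used here. Groups follow the labels. No 2 of the 91 pairs of libraries were identical.

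Counts of all 14 libraries (44527024 to 62669865 per library) entered a single fit in R 4.3.3 with edgeR 4.0.16 (quasi-likelihood test after TMM scaling), 1 mean per genotype. The filter, FPKM 0.5 or more in 3 or more libraries, kept 18059 genes. Adjusted p is Benjamini-Hochberg over these genes, two-sided, threshold 0.05. The standard error is the size of the log2 fold change over the square root of F. Single genes were compared with exact two-sided permutation tests (SciPy 1.17.1), and correlations with 100000 resamples of log2(CPM + 0.1). Overlap of groups was judged on FPKM, and some groups that were apart in FPKM overlapped in CPM. P-values measure the spread between these mice.

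Alternatives were no filter, an FPKM minimum of 1, median-ratio size factors, DESeq2 1.42.0, limma 3.58.1 on log2(FPKM + 0.1) and log2(FPKM + 1), the 2 genotypes only, the replicate number as a block, and leaving out each library. Covariates (Alb, Acta1 and Prm2, or the oligodendrocyte marker sum) were added after seeing the data. The fit was tested on simulated counts. The 32 genes, the other lists and the tests were chosen with earlier results of these data known. Genes given mouse by mouse were up to 5 per comparison at an unadjusted p under 0.05 without overlap, by log2 fold change, and the highest of each role in WT mice. For the 43 other pathway genes they were the 2 with the smallest p per comparison, of which some are not reported here. Cyp51, Msmo1, Lrp1, Npc2, Insig1, Scap, Nsdhl, Ebp and Idi1 were singled out after their values were seen. Promoters came from the RefSeq table for GRCm38.p6, and gene coordinates from GENCODE vM21, equal to those of the file for 30 of the 32 genes.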

Additional observations from a re-analysis of the deposited data

Results flagged for a closer look

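In 4 of 64 sets of 4 mice (each of the 32 genes in AG-KO and in NG-KO mice), 1 mouse stood apart by Dixon's criterion, which chance alone meets in about 1 in 20 sets. Srebf1 was highest in AG-KO replicate 4, at 7.29 FPKM. Srebf2 was lowest in NG-KO replicate 1, at 22.8 FPKM. Stard4 was highest in NG-KO replicate 4, at 5.32 FPKM. Npc1 was highest in NG-KO replicate 3, at 5.62 FPKM.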

How the results depend on the processing

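Of the 45 fold changes of single genes at an unadjusted p under 0.05 that were followed through 24 alternatives, 5 changed sign, all with Alb, Acta1 and Prm2 as covariates: in AG-KO against WT mice Lss (-0.046), Scap (-0.076) and Lrp1 (-0.11), and in AG-KO against Δ3102 mice Scap (-0.047) and Lrp1 (-0.14). The cause was not tested. DESeq2 called 5 members in AG-KO against WT, 3 in AG-KO against NG-KO and 2 in AG-KO against Δ3102 mice, where edgeR called 0. The same covariates gave unadjusted counts of 2 in Δ3102 and 9 in AG-KO mice against WT and 0 in NG-KO against Δ3102 mice. The oligodendrocyte covariate gave 1 in Δ3102 and 0 in NG-KO mice against WT, 0 in NG-KO against Δ3102 mice, and medians of -0.031 in Δ3102 against WT and 0.28 in AG-KO against Δ3102 mice. With limma on log2(FPKM + 1), medians were 0.13 in AG-KO against WT and 0.17 in AG-KO against Δ3102 mice. The 2 genotypes alone gave a count of 2 in NG-KO against Δ3102 mice. Leaving out each library gave unadjusted counts of 12 to 16 (AG-KO), 2 to 5 (Δ3102) and 4 to 6 (NG-KO) against WT, 6 to 10 in AG-KO against NG-KO, 10 to 15 in AG-KO against Δ3102 and 0 to 2 in NG-KO against Δ3102 mice. The last was 0 without NG-KO replicate 2 or 4, and 2 without WT replicate 2, Δ3102 replicate 1 or AG-KO replicate 4. Medians ran over 0.18 to 0.25 (AG-KO), -0.01 to 0.04 (Δ3102) and 0.02 to 0.08 (NG-KO) against WT, 0.14 to 0.21 in AG-KO against NG-KO, 0.15 to 0.26 in AG-KO against Δ3102 and 0.02 to 0.09 in NG-KO against Δ3102 mice. Members called stayed at 0, except 0 to 1 in AG-KO against NG-KO mice. Same-numbered mice of different genotypes deviated together (r above 0.1) in 6 of 19 pairs (r from -0.27 to 0.29), so the numbers were not taken to pair mice. The replicate block left 0 members called and gave unadjusted counts of 13 (AG-KO), 4 (Δ3102) and 4 (NG-KO) against WT, 6 in AG-KO against NG-KO, 12 in AG-KO against Δ3102 and 2 in NG-KO against Δ3102 mice. Except for the oligodendrocyte covariate, the shares of all genes in the alternative fits are not given here. Whether the counts moved more than those of all genes was not tested.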
